A study of Mus musculus with 4 samples.

Results

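The 10 genes described here encode the enzymes that carry long-chain fatty acids into mitochondria and shorten them there, namely Cpt1a, Cpt2, Acadvl, Acadl, Acadm, Acads, Hadha, Hadhb, Hadh and Acaa2. They were found by gene symbol in the array annotation, which gave 20 probe sets out of 45037 that are not controls, and 10 of 18193 named genes. A probe set is a group of short probes on the array that report 1 transcript region. Of these genes, 4 had 1 probe set and 6 had several, and each gene is represented by its brightest probe set unless another is named. The genes were chosen as a pathway at a time when the differences of these arrays, with Acadl among the higher genes, were already known. The comparison that chose them is therefore described for them and not tested.

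The arrays measured total RNA of basal cells of the mouse epidermis at E16.5 (embryonic age in days), which were isolated by fluorescence sorting for α6 integrin and YFP. In the 2 samples called cKO both Srf alleles were floxed (SRF fl/fl), and in the 2 samples called het only 1 was (SRF fl/+), which the submitters' design text names wild type. Both groups carried K14-Cre, a recombinase driven in keratinocytes of the basal layer, and the ROSA26 YFP reporter as fl/fl, so neither group is free of Cre. The titles het_1210 and Ko_1210 share a number, as do het_1261 and KO_1261. No label says what the numbers mark, or whether a sample was 1 embryo or a pool, so the spread between samples may be in part technical. Serum response factor, the product of Srf, is a transcription factor that controls cytoskeletal and immediate early genes. Where values follow in pairs, the array with the lower title number (het_1210 or Ko_1210) comes first and that with the higher number (het_1261 or KO_1261) second; differences within the numbers follow the same order.

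Fatty acids are burned for energy in mitochondria by β-oxidation. Cpt1a on the outer membrane joins the acyl group to carnitine, and Cpt2 on the inner membrane returns it to coenzyme A inside. Each round of shortening then takes an acyl-CoA dehydrogenase, a hydratase, a hydroxyacyl-CoA dehydrogenase and a thiolase. The dehydrogenases are divided by chain length: Acadvl acts on very long, Acadl on long, Acadm on medium and Acads on short chains. Hadha and Hadhb form the trifunctional protein, which takes long chains through the remaining steps, while Hadh and Acaa2 serve shorter ones. The genes are known targets of the PPAR nuclear receptors, and malonyl-CoA, the first product of fatty acid synthesis, inhibits Cpt1a.

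The stretches upstream of Acadl and Cpt1a are shown because these genes had the highest and the lowest difference among the 10, and the stretch between Hadha and Hadhb because a single interval of 272 bases lies between their start sites. The sequences are from RefSeq on GRCm38.p6, and promoter windows of 9 of the 10 genes were used here. Each runs 5′ to 3′ on the strand named and ends or begins at a transcription start. Capitals mark the GC box GGGCGG and the receptor element AGGTCA on either strand.
Acadl, chr1:66863310-66863559, minus strand: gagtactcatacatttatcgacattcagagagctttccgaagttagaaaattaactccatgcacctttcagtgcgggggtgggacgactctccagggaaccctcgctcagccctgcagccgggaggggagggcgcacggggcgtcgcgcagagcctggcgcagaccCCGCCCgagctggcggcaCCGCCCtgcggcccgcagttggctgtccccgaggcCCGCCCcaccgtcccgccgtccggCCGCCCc
Cpt1a, chr19:3323051-3323300, plus strand: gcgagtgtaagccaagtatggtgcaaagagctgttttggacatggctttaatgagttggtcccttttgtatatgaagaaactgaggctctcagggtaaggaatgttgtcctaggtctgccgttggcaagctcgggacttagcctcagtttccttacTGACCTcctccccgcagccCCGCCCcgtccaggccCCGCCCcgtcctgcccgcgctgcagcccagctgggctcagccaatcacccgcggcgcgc
Hadha to Hadhb, chr5:30154981-30155252, plus strand: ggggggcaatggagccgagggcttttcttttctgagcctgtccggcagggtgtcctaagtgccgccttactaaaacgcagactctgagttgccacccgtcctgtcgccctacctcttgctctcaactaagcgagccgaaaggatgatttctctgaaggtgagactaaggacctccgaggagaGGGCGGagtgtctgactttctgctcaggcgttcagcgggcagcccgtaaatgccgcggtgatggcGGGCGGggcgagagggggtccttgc

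In the Acadl stretch 4 GC boxes and no AGGTCA element were matched, and in that of Cpt1a 2 GC boxes and 1 AGGTCA element, written TGACCT on the strand shown. Motifs were searched on both strands in windows from 250 bases before to 50 bases after each start. The GC box was found in 7 of the 9 windows and in 35.7% of all 32851 promoter windows. AGGTCA was found in 3 of 9 (Acadm, Acadvl and Cpt1a) and in 16.3% of all. The CArG box, the element that serum response factor binds, had 0 matches in the 9 windows and was present in 1.63% of all. The same held for 2 longer elements that contain AGGTCA, namely the direct repeat AGGTCANAGGTCA, present in 0.0396% of all windows, and TCAAGGTCA, present in 0.423%. A match is a description of letters, and a missing match says nothing of sites outside the window.

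Values are MAS5 signals, an array intensity on a linear scale with arbitrary units, which the authors scaled to a 2%-trimmed mean of 500.0 on each array. Srf itself was lower in the cKO samples: its brighter probe set read 833.9 and 1108 in het against 47.9 and 80.4 in cKO. The defining genes of basal keratinocytes were bright on all 4 arrays, Krt5 with signals from 35310 to 57960 and Krt14 from 35520 to 59600. The arrays also differed by number. The 3′ to 5′ signal ratio of a control transcript, a measure of RNA integrity, was 0.871 and 0.782 in het and 0.914 and 0.771 in cKO for Gapdh, and 2.75 and 2.0 in het and 3.12 and 2.43 in cKO for Actb, so that both ratios were higher on the lower-numbered arrays. Poly-A spike-in controls were higher on the lower-numbered array at 12 of 12 probe sets in both groups (median ratio 2.45 in het and 2.80 in cKO), and the Xist signal was 62.6 in het_1210 and 115.4 in Ko_1210 against 14340 in het_1261 and 22800 in KO_1261. The Y-linked Eif2s3y had signals of 1485 and 833.9 in het against 1386 and 3.01 in cKO, so het_1261 held both transcripts and KO_1261 only Xist, and the genotypes differed in this respect within the higher number. For each gene the difference within each number is therefore given.

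Acadl, the long-chain acyl-CoA dehydrogenase, was higher in cKO. Its signals were 748.9 and 797.4 in het against 1517 and 1322 in cKO. Both cKO arrays lay above both het arrays, and the gap between the groups exceeded the spread within either. Group means were 773.1 ± 34.3 (het; SD, n = 2) and 1420 ± 138 (cKO; SD, n = 2). Their ratio was 1.84, and it was 2.03 within the lower number and 1.66 within the higher. On the log2(signal + 1) scale the mean difference, cKO minus het, was 0.87, and 45 of 11053 tested genes had a larger one. Tested genes are those whose mean log2 signal exceeded the median of all probe sets, a signal of 65.9. With any 1 array left out, the Acadl difference ranged from 0.77 to 0.97. The second Acadl probe set (1448988_at) was below that filter, with signals from 6.89 to 14.0 on the 4 arrays, and gave no usable level.

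**Figure D1:**
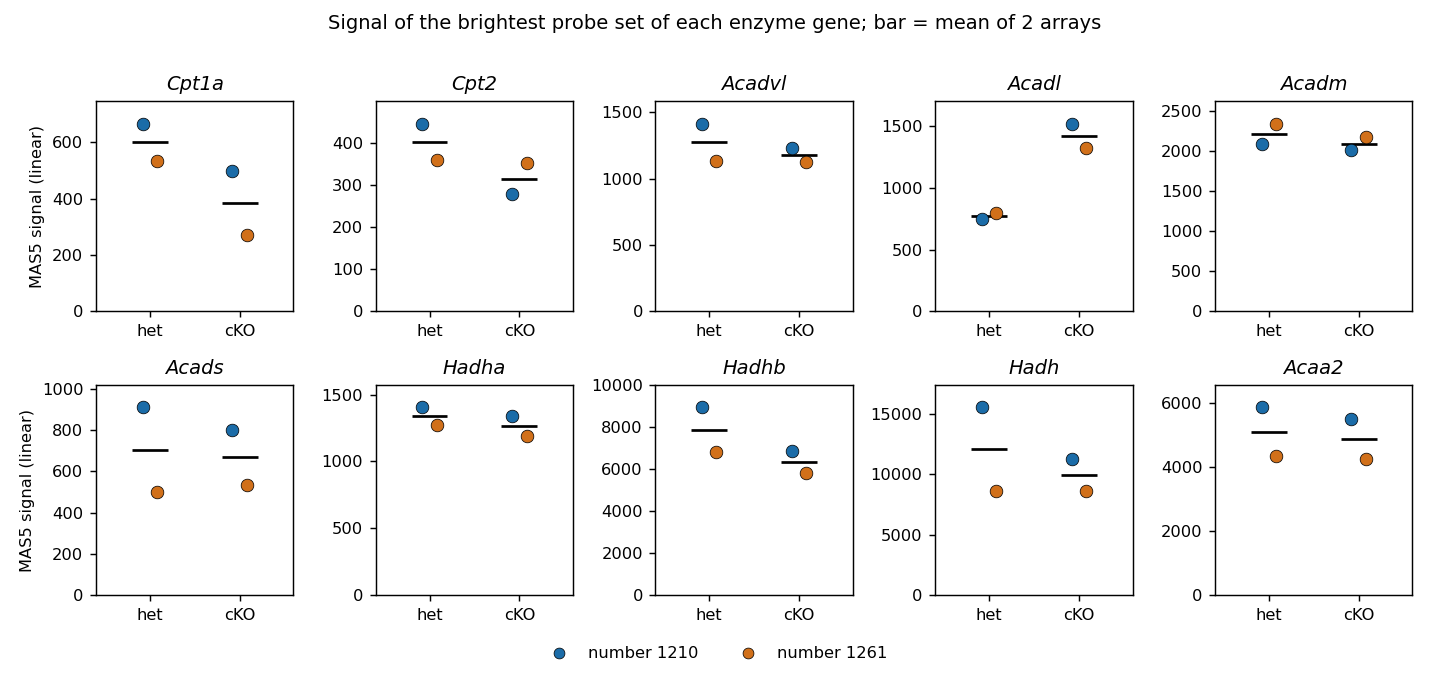
MAS5 signal (linear axis from 0, arbitrary units) of the brightest probe set of each of the 10 genes on the 4 arrays; points are arrays, coloured by the number in the sample title, and bars are the means of 2 arrays. Acadl is the gene whose cKO points (1322 and 1517) both lie above its het points (748.9 and 797.4), while the points of Cpt1a and Cpt2 lie lower in cKO and those of the other 7 genes overlap.

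The other 3 straight-chain dehydrogenases did not share that difference. Acadm, of medium chains, had signals of 2087 and 2345 in het against 2015 and 2180 in cKO, and a mean difference of -0.08 (-0.05 within the lower number and -0.10 within the higher). Acadvl, of very long chains, had 1414 and 1133 in het against 1234 and 1127 in cKO, a mean difference of -0.10 (-0.20 and -0.01). In Acads, of short chains, the signals were 908.6 and 501.6 in het against 801.2 and 533.6 in cKO, a mean difference of -0.05 (-0.18 and 0.09). For all 3 genes the groups overlapped, and in Acads the number separated the arrays while the genotype did not.

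The carnitine palmitoyltransferases were lower in cKO, though not by every probe set. The brightest Cpt1a probe set (1434866_x_at) had signals of 665.7 and 535.5 in het against 498.1 and 272.0 in cKO. Both cKO arrays lay below both het arrays, at 385.0 ± 159.9 against 600.6 ± 92.1 (SD, n = 2), with a mean log2 difference of -0.70 (-0.42 and -0.97). A dimmer probe set (1438156_x_at) was also lower on both cKO arrays, at 64.3 and 91.9 against 205.7 and 124.6, a difference of -1.05. The third (1460409_at) had 429.4 and 377.7 in het against 362.0 and 408.9 in cKO, overlapping, with a difference of -0.07 (-0.25 and 0.11). The suffix _x_at marks probe sets whose probes may also bind other transcripts, and it was the Cpt1a probe set without it that did not separate the groups.

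Cpt2 had signals of 445.7 and 360.7 in het against 278.0 and 352.9 in cKO, a mean difference of -0.36. The 2 cKO arrays lay below the 2 het arrays, but almost all of the difference arose within the lower number (-0.68, against -0.03 within the higher). Its second probe set (1447820_x_at) was dim, at 121.7 and 82.7 in het against 88.8 and 42.4 in cKO, and overlapped.

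The subunits of the trifunctional protein differed little. Hadha had signals of 1403 and 1271 in het against 1338 and 1190 in cKO, a difference of -0.08 (-0.07 and -0.09). Hadhb had 8939 and 6825 in het against 6860 and 5809 in cKO by its brightest probe set (1437172_x_at), a difference of -0.31 (-0.38 and -0.23). The groups overlapped for both genes, which face each other across the 272 bases printed above. A second Hadhb probe set (1426522_at) had 3294 and 3216 in het against 3200 and 3417 in cKO, a difference of 0.02. The third (1442732_at) had signals from 18.0 to 148.4, and its differences within the numbers had opposite signs (1.77 and -0.42).

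Hadh and Acaa2, which act on shorter chains, overlapped between the groups by their brightest probe sets. Hadh (1455972_x_at) had signals of 15550 and 8666 in het against 11320 and 8598 in cKO, a difference of -0.23 (-0.46 and -0.01). Its second probe set (1460184_at) had 3254 and 2964 in het against 2904 and 3051 in cKO, a difference of -0.06. The dimmest Hadh probe set (1436756_x_at) stood apart from these: 812.5 and 515.2 in het against 341.9 and 299.6 in cKO, a difference of -1.01 (-1.25 and -0.78), so the probe sets of this gene disagree. Acaa2 had 5858 and 4354 in het against 5501 and 4240 in cKO, a difference of -0.06 (-0.09 and -0.04), and its other probe sets differed by -0.11 and -0.12.

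**Figure D2:**
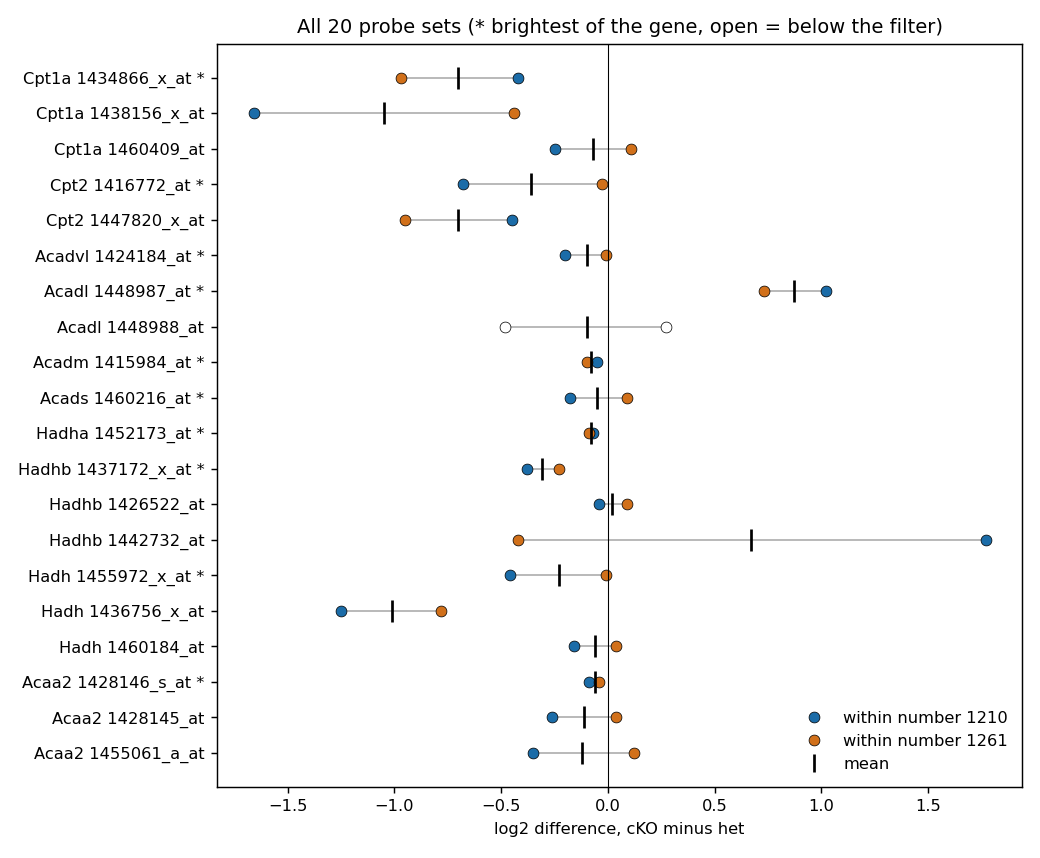
Log2 difference, cKO minus het, within each title number (points, coloured by number) and their mean (black tick) for all 20 probe sets, grouped by gene; open points are the Acadl probe set below the filter. The Acadl probe set 1448987_at lies at 0.73 and 1.02, while probe sets of Cpt1a and Hadh that differ by -0.70 and below sit beside probe sets of the same gene that differ by -0.23 or less in size.

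Of the 10 genes, 9 had a lower mean in cKO and 8 were lower within both numbers, but 5 differed by less than 0.2. Their median difference was -0.09 (-0.19 within the lower number and -0.03 within the higher), beside -0.02 over all tested genes (-0.03 and -0.02). The median absolute difference was 0.17 for the 10 genes and 0.16 for all tested genes. The median was 0.02 without het_1210 and -0.38 without het_1261. Direction also depended on scaling: with each array centred on its median, 4 of the 10 genes were lower (Hadhb, Hadh, Cpt1a and Cpt2), with a median of 0.03, while the median of all tested genes moved to 0.10. Acadl, at 1.0, was higher under that scaling as well.

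Non-overlap of the arrays was counted without any variance estimate. Both cKO arrays lay above both het arrays for 1 of the 10 genes (Acadl), where the share of all tested genes was 8.17%, and below for 2 (Cpt1a and Cpt2), where it was 10.9%. Under median centring Acadl still did not overlap while Cpt1a and Cpt2 did. With quantile scaling Acadl again lay above, the 2 genes below were Hadhb and Cpt2, and Cpt1a overlapped. Over the 19 tested probe sets the count below was 4, beside 10.4% of all probe sets. Each of the 4 possible cKO-to-het ratios of Acadl was above 1.5, which held for 0.0633% of tested genes. In the limma fit without the number as a block 0 of all genes were called at an adjusted p of 0.05 (0%), and 66 were under 0.05 before adjustment. Blocking on the number, 0.253% of genes were called higher and 0.624% lower. Among the 10 genes 1 was called higher (Acadl) and 0 lower. At the level of probe sets, 0.364% were called higher and 0.497% lower, and among the 19 these were 1 of Acadl and, lower, the dim probe set 1436756_x_at of Hadh. Since this contrast chose the genes, nothing is read from those counts.

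**Figure D3:**
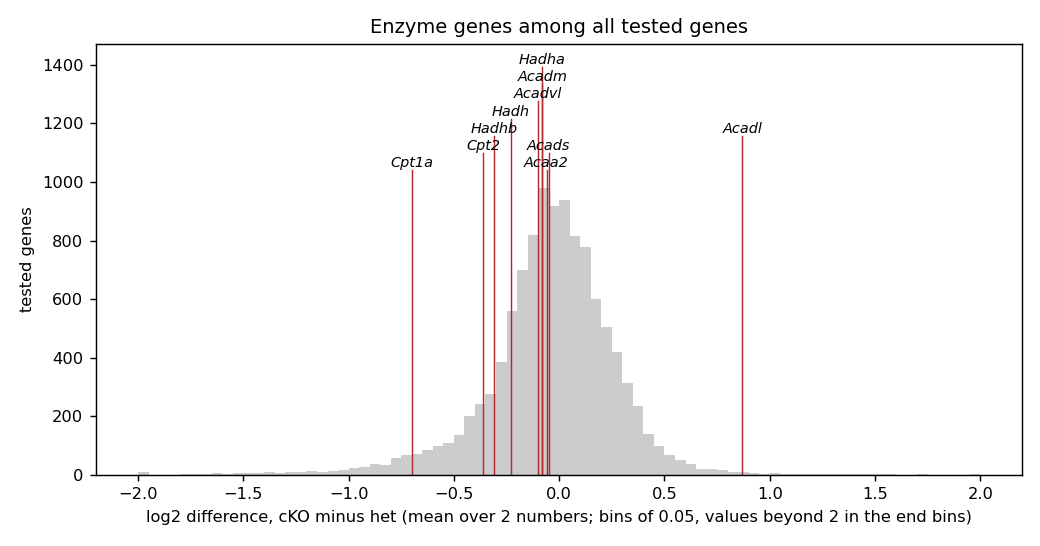
Histogram of the mean log2 difference, cKO minus het, of the 11053 tested genes in bins of 0.05, with red lines at the 10 enzyme genes. Below 0 lie 9 of the 10 lines (4 under median centring), 5 of them within 0.2 of it, and Acadl lies at 0.87, where 45 genes lie further right.

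The contrast between the numbers played no part in the choice of the genes and could be tested. In limma with the genotype as a term, 12.9% of the tested genes were higher on the higher-numbered arrays and 19.1% lower. Of the 10 enzyme genes, by their brightest probe sets, 4 were called lower and 0 higher. As higher number minus lower, Hadh differed by -0.62 ± 0.14 (moderated standard error, adjusted p = 5.12e-04) and Acads by -0.72 ± 0.20 (adjusted p = 0.00399). Acaa2 differed by -0.40 ± 0.14 (adjusted p = 0.0265) and Cpt1a by -0.59 ± 0.22 (adjusted p = 0.0308). These errors rest mostly on probe sets of like signal and little on the gene's own arrays. All 4 were lower on the higher-numbered array in het and in cKO. In het and in cKO the differences were -0.84 and -0.40 for Hadh and -0.86 and -0.59 for Acads. For Acaa2 they were -0.43 and -0.38, and for Cpt1a -0.31 and -0.87. Acadl differed by -0.05 ± 0.18 (adjusted p = 0.846), with 0.09 in het and -0.20 in cKO, so its difference between the numbers was smaller than that between the genotypes. The integrity ratios, the spike-in controls, Xist and Eif2s3y also differed between the numbers, and their part in these differences was not tested.

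These calls depended on the variance model and on single arrays. Without the variance trend 0 of the 10 genes were called, and 0 without KO_1261, while without het_1261 Cpt1a was the 1 gene called. Under median centring 6 were called lower, Acadvl and Hadhb in addition, as the median of all tested genes moved from -0.13 to -0.38. The probe sets of a gene again differed: the Hadh probe set 1460184_at gave -0.03 ± 0.15, and the Cpt1a probe set 1460409_at had a difference of 0 to 2 decimals. The Acaa2 probe sets 1428145_at and 1455061_a_at gave -0.26 ± 0.15 and 0.22 ± 0.16. A dim Hadhb probe set (1442732_at) was called higher on the higher-numbered arrays, by 1.88 ± 0.55 (adjusted p = 0.00759 in limma).

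**Figure D4:**
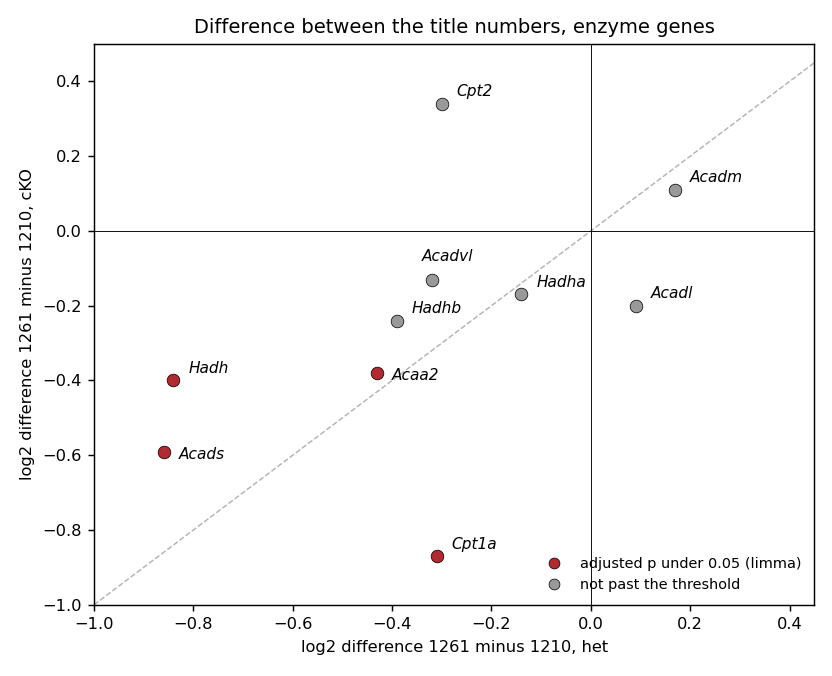
Log2 difference between the higher-numbered and the lower-numbered array in het (x axis) and in cKO (y axis) for the 10 enzyme genes; red points passed an adjusted p of 0.05 in limma, and the dashed line marks equal differences. Hadh, Acads, Acaa2 and Cpt1a lie below 0 on both axes, whereas Acadl lies near 0 on both (0.09 and -0.20).

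The other genes of fatty acid use were taken as 9 lists with 109 genes, of which 100 were on the array by symbol and 85 were tested. Over these, 34 had a higher and 51 a lower mean in cKO, with a median of -0.03. Under median centring the balance turned, to 54 higher and 31 lower with a median of 0.09. Without the block 0 of 85 were called, and 0 had an unadjusted p under 0.05. With the block 1 fell, and the other 84 had adjusted p-values from 0.347 to 0.997.

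The gene that fell was Fabp4, a fatty acid-binding protein of adipocytes and capillary endothelium, at 790.6 and 2024 in het against 222.0 and 1373 in cKO. The groups overlapped, because the number separated the arrays more than the genotype, and within the numbers the difference was -1.83 and -0.56 (mean -1.19; limma with the block, adjusted p = 0.00174). Over the other settings its adjusted p ranged from 0.037 with the block and median centring to 1.0. It was 0.225 with the block and a robust prior and 0.736 with the block and no variance trend. The call therefore rests on the variance model.

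Of the 12 tested genes of acyl-CoA entry and the carnitine shuttle, Crat, carnitine acetyltransferase, had signals of 179.8 and 144.6 in het against 297.3 and 181.9 in cKO (difference 0.53). Acsl3, an acyl-CoA synthetase, had 317.1 and 496.3 against 559.2 and 530.8 (0.46), mostly within the lower number (0.82, against 0.10 within the higher). Neither passed, and for both genes another tested probe set differed in the opposite direction. Slc25a20, the carrier that brings acylcarnitine across the inner membrane, differed by -0.10, and Fabp5, the abundant epidermal fatty acid-binding protein, by -0.14.

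Electron transfer from the dehydrogenases runs through Etfa and Etfb to Etfdh, which differed by 0.12, -0.20 and 0.07. The 11 tested genes of this auxiliary list had a median of -0.03. Among the dehydrogenases of branched-chain amino acids and lysine, Ivd, which acts on isovaleryl-CoA, had signals of 883.0 and 837.5 in het against 1087 and 1170 in cKO. Its groups did not overlap, the difference was 0.39 (0.30 and 0.48) and it did not pass (adjusted p = 0.495 in limma with the block). Its other probe set, also tested, differed in the opposite direction.

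Peroxisomal oxidation, which shortens very long chains before they reach mitochondria, had 9 of 11 tested genes with a lower mean and a median of -0.14. For 4 of the 11 both cKO arrays lay below both het arrays (Ehhadh, Hsd17b4, Scp2 and Decr2), beside 10.9% of all tested genes. Their differences ran from -0.14 to -0.44, and 0 of the 11 passed. Those of Ehhadh (-0.83 and -0.05) and Decr2 (-0.43 and -0.03) arose almost wholly within the lower number. Hsd17b4 and Scp2 each had another tested probe set of opposite direction. Under median centring 6 of 11 were lower and 0 of the 4 stayed apart.

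Of the other PPAR target genes 5 were tested and all 5 had a lower mean, with a median of -0.39 (-0.44 and -0.34) under the deposited scaling and -0.27 under median centring. Ucp3, a mitochondrial carrier best known from muscle, had signals of 164.2 and 92.9 in het against 68.5 and 42.6 in cKO, a difference of -1.18 (-1.25 and -1.11; adjusted p = 0.347 in limma with the block). The lower cKO values lie near or below the filter, so the size is imprecise. Acot1, a thioesterase, had 1845 and 1549 in het against 1468 and 1293 in cKO (-0.30), and Plin2, which coats lipid droplets, overlapped at -0.39.

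The regulators had 7 of 13 tested genes higher and a median of 0.09. Ppara had signals of 43.3 and 78.1 in het against 112.9 and 83.4 in cKO, near the filter, with a difference of 0.73 that arose within the lower number (1.36, against 0.09). Ppard, the receptor best known in keratinocytes, had 336.3 and 393.2 against 398.5 and 458.1 (0.23), while Esrra and Rxra differed by -0.05 and -0.16. Among the genes of fatty acid synthesis, Acaca, which makes malonyl-CoA, had 501.9 and 657.7 in het against 658.7 and 764.0 in cKO (0.30), and the list median was 0.00. None of these genes passed.

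In the tricarboxylic acid cycle, which takes up the acetyl-CoA, 10 of 16 tested genes had a higher mean, with a median of 0.01, and 0 passed. For 5 of the 16 (Idh3a, Dlst, Dld, Suclg2 and Sdha) both cKO arrays lay above both het arrays, beside 8.17% of all tested genes. Their differences ran from 0.16 to 0.23. Those of Dld (0.39 and 0.02) and Sdha (0.32 and 0.0) arose within the lower number. Dlst, Suclg2 and Sdha each had another tested probe set of opposite direction. Under quantile scaling 3 of the 5 stayed apart, and under median centring 6 of the 16 genes did, with 14 of 16 higher and a median of 0.13. The 3 ketone body genes had a median of -0.10.

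**Figure D5:**
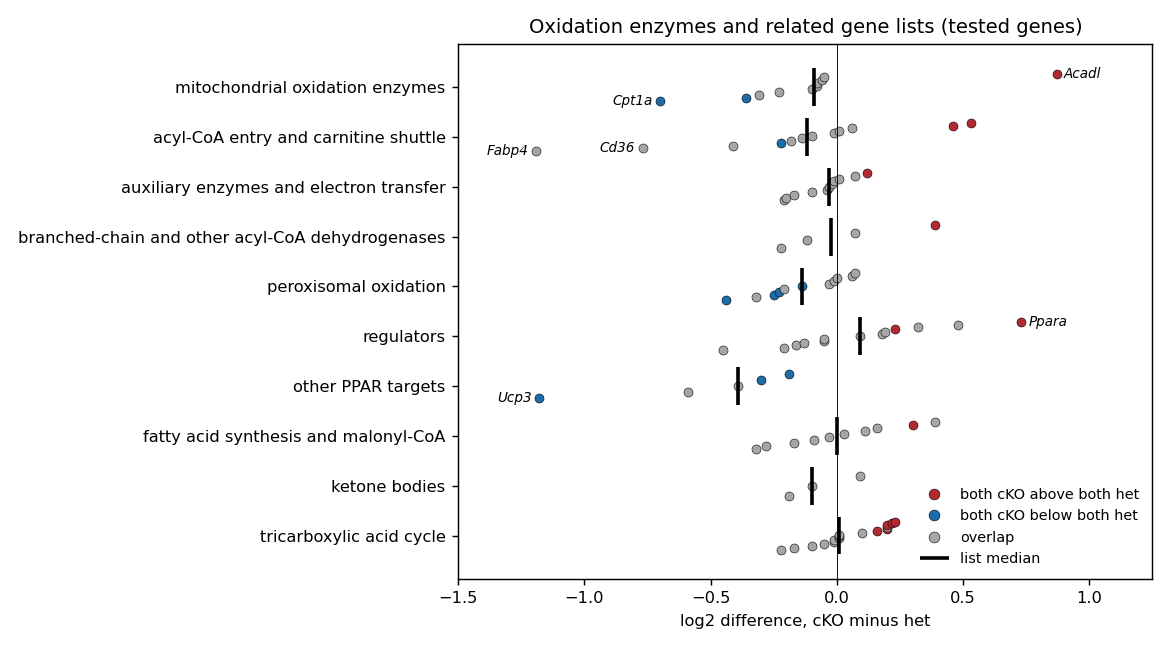
Mean log2 difference, cKO minus het, of the tested genes of the 10 enzymes and of each related list (points), with list medians as black bars; red and blue points mark genes whose cKO arrays both lie above or both lie below the het arrays. Acadl stands at 0.87 while the median of its group is -0.09, and the list of other PPAR targets has all 5 points below 0.

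The pattern of Acadl over the 4 arrays was set against those of 11052 other tested genes by the Euclidean distance between log2 signals centred on each gene's own mean, as a description. The nearest were Marveld1 (distance 0.168; signals of 1971 and 2084 in het against 3451 and 3324 in cKO), Mpdu1 (0.243), B630019K06Rik (0.25), Enox2 (0.269) and Gpr155 (0.284). The other 9 enzyme genes were at distances from 0.969 for Hadha, the 4400th nearest, to 1.66 for Cpt1a, the 10354th. All 5 nearest genes had both cKO arrays above both het arrays, as Acadl did. This follows from choosing them by nearness to the Acadl pattern and is no separate result.

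The genes next to Acadl on chromosome 1 did not show its difference. Kansl1l had signals of 704.5 and 1258 in het against 886.6 and 1030 in cKO (difference 0.02). Myl1, a myosin light chain of fast muscle, had 57.5 and 89.8 against 97.5 and 65.7 (0.15), and both genes overlapped. The Myl1 signals lie near the filter, so its difference is imprecise. Of the genes beside Cpt1a, Mrpl21, a mitochondrial ribosomal protein, differed by -0.11, and Tesmin by -0.56 with both cKO arrays below both het arrays. Neighbours were taken from the RefSeq gene order.

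Markers of other cell types were also measured, and their part in the values above was not tested. In RNA of sorted cells, fewer cells of a type and less RNA per cell cannot be told apart. The 4 adipocyte markers on the array (Adipoq, Lpl, Fabp4 and Cidec) had summed signals of 1163 and 2703 in het against 489.7 and 2015 in cKO. The 3 tested ones were lower in mean log2 signal (2 of 3 under quantile scaling or median centring). For Lpl that difference was -0.03, with opposite signs within the numbers (-0.41 and 0.34). Adipoq, which defines the type, had 36.1 and 349.9 against 15.5 and 229.2. The 8 fibroblast markers summed to 60430 and 55390 in het against 51210 and 51230 in cKO, with 6 lower in mean. Their median difference was -0.92 within the lower number and -0.18 within the higher. Col3a1 and Twist2 fell with the block (adjusted p = 0.0301 and 0.0451 in limma). Dcn (0.06) and Pdgfra (0.75) went the other way, and for Pdgfra both cKO arrays lay above both het arrays. The 7 skeletal muscle markers summed to 462.4 and 572.8 against 545.1 and 433.8, with 3 of 3 tested ones higher in mean and overlapping, and Myog, Ckm, Tnnt3 and Myh3 below the filter.

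Within the epidermis, the 6 basal markers had a median difference of 0.11 and overlapped, while the 5 suprabasal markers had a median of -0.64. Krt1, Krt10 and Sbsn fell with the block (adjusted p = 0.00128, 0.0034 and 0.0191 in limma). The other suprabasal markers overlapped: Krtdap differed by -0.14, and Lor by 0.47 with opposite signs within the numbers (1.68 and -0.75). Under median centring the suprabasal median was -0.52 and 0 of the 5 stayed apart. The 4 tested melanocyte markers had a median of -0.43, which arose within the lower number (-0.94, against 0.04 within the higher). The 2 immune and 3 endothelial markers had medians of -0.96 (-1.05 and -0.86) and -0.49 (-0.77 and -0.32), and 0 of the erythroid markers passed the filter. Of these, the immune gene Laptm5 fell with the block (adjusted p = 0.0367 in limma), though another of its tested probe sets differed in the opposite direction. Suprabasal markers summed to 142800 and 90030 in het against 89530 and 71660 in cKO.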

How the data were processed

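Trizol was used to isolate RNA, and a 3′ IVT kit to make biotinylated target, per the labels' protocols. The deposited intensity values are MAS5 signals made by the authors, per the submitters' processing notes (version not given in the sources used here). Arrays have no read depth: their number, 2 per group, limits the precision. Of 45101 probe sets 64 controls were left out. Symbols were updated through the Entrez identifier: 34945 probe sets had 1 symbol (34741 matched), 932 several and 9160 none, and the last 2 kinds were left unnamed.

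Values were transformed as log2(signal + 1), which understates changes of low signals. Counts of genes with a higher or lower mean in cKO refer to this scale. The 22518 probe sets above the median mean log2 signal were fitted with limma 3.58.1 in R 4.3.3 (eBayes with variance trend, two-sided, Benjamini-Hochberg adjustment over all of them, threshold 0.05): genotype alone, with 2 residual degrees of freedom, and, as an alternative, with the title number as a block, with 1. The difference between the numbers was fitted with the genotype as a term, which is the same model as that with the block. Standard errors given with it are those moderated by limma, with 34.4 prior degrees of freedom beside 1 residual. A gene is said to have fallen or risen only where it passed, with the block unless stated. With 2 samples per group an exact permutation test cannot go below p = 0.333, so none was run. Deviations of same-numbered arrays from their group means correlated at 0.755 across probe sets, but 2 pairs are too few, and no label says whether a number marks one litter, animal or day.

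The genes, lists and rules were chosen with earlier results of these data known. Named were all 10 enzyme genes, and from each related list the genes that passed in either fit, the 2 with the largest absolute difference whose groups did not overlap, and those a clause on the pathway needed, besides the 5 genes most like Acadl, the nearest protein-coding neighbours and Srf. The peroxisomal and tricarboxylic acid cycle genes named beyond 2 per list were chosen after their values were seen. Figures were drawn with matplotlib 3.10.9.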

Additional observations from a re-analysis of the deposited data

How the results depend on the processing

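Without a block, 0 probe sets were called between the genotypes in limma, and 108 were under 0.05 before adjustment. With a replicate block for the title number 194 were called (82 higher, 112 lower), 84 with a robust prior in addition, 109 (74 higher, 35 lower) with median centring in addition, and 0 when the variance trend was left out. Leaving out 1 array gave 0 to 5 calls: 5 without Ko_1210 and 3 without KO_1261. Of the related genes 1 (Fabp4) was called with the block and 1 with the block and median centring, and 0 under the other settings. With 1 array left out, which unbalances the numbers, the median difference of the 10 enzyme genes ranged from -0.38 without het_1261 to 0.02 without het_1210. It was 0.03 with median centring, -0.12 with quantile scaling and -0.09 with another pseudocount (16), without the filter or with the mean of all probe sets of a gene.

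Between the numbers 7788 probe sets were called (4470 higher and 3318 lower on the higher-numbered arrays), 3868 and 4401 with quantile scaling, 3010 and 6370 with median centring, and 2728 without the variance trend. Leaving out 1 array, with number alone in the fit, gave 2470 (without KO_1261) to 9628 (without Ko_1210), and 3015 without het_1261.

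Over 10 settings Acadl stayed above 0 (0.38 to 1.0, the lowest with its probe set at background averaged in), and Cpt1a (-1.13 to -0.26) and Cpt2 (-0.53 to -0.18) below 0. The other 7 genes changed sign under at least 1 setting. The block and the missing filter, which are among these settings, cannot change the mean difference of a gene. The causes of the differences were not tested. Signals near the filter of 65.9, as in Ucp3, Ppara and Myl1, are imprecise on a log scale.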
